A study of Mus musculus with 165 samples.

Results

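The 10 genes described here are protein genes of the mouse mitochondrial genome: mt-Nd1, mt-Nd2, mt-Nd4, mt-Nd5, mt-Nd6, mt-Cytb, mt-Co1, mt-Co2, mt-Co3 and mt-Atp6. They were taken by name, as the rows of the count tables whose Ensembl identifiers map to these symbols, and all 10 were found in both tables. They are 10 of 55471 rows, and 10 of the 37 genes that the annotation places on the mitochondrial chromosome, 13 of which code for protein. The values come from poly(A)-selected, stranded RNA-seq of bulk brain and liver from male C57BL/6J/Ukj mice that were kept only to age, with no treatment or genotype named in the labels. Mice were taken at 3, 9, 15, 24 and 28 months of age, with 15, 16, 16, 17 and 18 brain libraries and 16, 16, 16, 17 and 18 liver libraries in that order. Brain and liver of the same number are from 1 mouse for 82 mice, and the brain of 1 further mouse of 3 months is not analysed here. Each mouse was sampled at 1 age, so the ages are compared between mice, and the labels give 3 library preparations (preps) that each hold all 5 ages.

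Mitochondria keep a small circular genome of their own, which is read from both strands into long transcripts. These are cut at the tRNAs between the genes, and most messengers of the genome then receive poly(A) tails. Its protein genes code for the core membrane subunits of respiratory complexes I, III and IV and of the ATP synthase, which are built together with many subunits made from nuclear genes. The respiratory chain passes electrons from food to oxygen and pumps protons, and the ATP synthase uses the proton gradient to make ATP, a process on which both neurons and hepatocytes depend heavily.

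mt-Nd1 (chrM:2751-3707), mt-Nd2 (chrM:3914-4951), mt-Nd4 (chrM:10167-11544), mt-Nd5 (chrM:11742-13565) and mt-Nd6 (chrM:13552-14070) code for subunits of complex I, the NADH dehydrogenase. mt-Cytb (chrM:14145-15288) codes for cytochrome b of complex III. mt-Co1 (chrM:5328-6872), mt-Co2 (chrM:7013-7696) and mt-Co3 (chrM:8607-9390) code for the catalytic core of cytochrome c oxidase, complex IV. mt-Atp6 (chrM:7927-8607) codes for the subunit of the ATP synthase beside which protons cross the membrane. Coordinates are on GRCm38, and each gene is 1 exon without an intron. mt-Nd6 lies on the minus strand and the other 9 on the plus strand. mt-Nd5 and mt-Nd6 overlap by 14 bases on opposite strands, and mt-Atp6 shares 43 bases with mt-Atp8, which is not a member.

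The members differ in whether their sequence stands in the nuclear genome as well, and what this does to their counts was not tested. Nuclear chromosome 1 holds a block of annotated unprocessed pseudogenes on the minus strand, chr1:24611535-24616197, that copies a stretch of the mitochondrial genome. Over the aligned bases mt-Co2 and its copy Gm28661 had 0 differences in 681 bases, mt-Atp6 and Gm10925 had 0 in 678, mt-Co3 and Gm28437 had 0 in 783, and the first 876 of 1378 bases of mt-Nd4 had 0 against Gm28439. The copy of mt-Co1, Gm29216, covers its last 492 bases and differs at 6 of them, T1056A, C1057T, A1059G, A1060G, C1062A and A1066T, with the mitochondrial base first, the position counted from 1 at the first base of mt-Co1, and the base of the copy last. The stretch of mt-Co1 that holds these 6 bases and a stretch of mt-Co2 of the same length show how far a read of 100 bases can tell the places apart. They are read from the genome 5′ to 3′ along the gene, with capitals at the bases that differ.
mt-Co1, chrM:6381-6440: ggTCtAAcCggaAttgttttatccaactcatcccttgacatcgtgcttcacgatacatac
Gm29216, chr1:24616138-24616197, minus strand: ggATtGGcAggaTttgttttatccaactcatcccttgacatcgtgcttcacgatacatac
mt-Co2, chrM:7323-7382: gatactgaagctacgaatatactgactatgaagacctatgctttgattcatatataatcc
Gm28661, chr1:24615196-24615255, minus strand: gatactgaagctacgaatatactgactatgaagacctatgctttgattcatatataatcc
Of all windows of 100 bases in a member, the share found letter for letter in another annotated transcript was 99.5% for mt-Co2, 99.5% for mt-Atp6 and 99.9% for mt-Co3. It was 60.8% for mt-Nd4, 30.8% for mt-Co1 and 3.19% for mt-Nd2, and no window was shared for mt-Nd1, mt-Nd5, mt-Nd6 or mt-Cytb.

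Library totals ran from 11460609 to 73390216 counts in brain and from 5823039 to 57490197 in liver, so counting error is small beside the spread between mice for all but the rarest members. The labelled tissues carried their markers: the neuronal gene Snap25 was at 966 to 2768 CPM (the usual count rate per library, from edgeR, with the library total scaled by the trimmed mean of M values, TMM) in brain and at 0 to 40.3 in liver, and the hepatocyte gene Alb was at 14010 to 101195 CPM in liver and at 0 to 18.5 in brain. Some libraries stood apart. The brain library of 28 months numbered 15 had the smallest brain total (11460609 counts), the lowest Snap25 (966 CPM) and the lowest share of counts in the 10 members (0.868%), with 2.12% of its counts in the mitochondrial rRNAs. The liver library of 28 months numbered 14 had the lowest Alb (14010 CPM) and the highest liver Snap25 (40.3 CPM). Among the libraries least correlated with the rest of their tissue were also the brain library of 24 months numbered 13 (mean correlation 0.941, beside a median of 0.987) and the liver libraries numbered 13 of 24 months and 9 of 28 months (0.920 and 0.930). Values without these libraries are given beside several results.

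The 10 members took 4.09% ± 0.562 (SD, n = 82) of a brain library's counts and 4.82% ± 0.653 (n = 83) of a liver library's, and nearly all of this came from 6 genes. Per kilobase of gene and over all brain libraries, the median level was 8846 CPM for mt-Co1, 6381 for mt-Cytb, 6348 for mt-Nd1, 4299 for mt-Nd2, 3061 for mt-Nd4 and 2925 for mt-Nd5. In liver the same 6 had medians of 9860, 8232, 6874, 6715, 4104 and 2808 CPM per kilobase. mt-Cytb and mt-Nd1 in brain, mt-Nd1 and mt-Nd2 in liver, and mt-Nd4 and mt-Nd5 in brain are neighbours in this order whose medians lie within 1 SD of each other. mt-Nd6, the minus-strand member, stood at 114 CPM per kilobase in brain and 233 in liver. How much of each messenger the poly(A) selection captured, that of mt-Nd6 included, was not tested.

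The 3 members whose windows were shared at 99% or more had the lowest levels in both tissues. Per kilobase, mt-Co2 was at 56.9 CPM in brain and 55.5 in liver, mt-Co3 at 26.9 and 35.9, and mt-Atp6 at 25.0 and 26.8. Among the 3 other mitochondrial protein genes, mt-Nd4l (98.5% shared) was at 20.6 and 27.6 and mt-Nd3 (97.6% shared) at 3.80 and 4.18. mt-Atp8, 204 bases long and with no window shared with an annotated transcript, was at 23.7 and 23.6. It lies between mt-Co2 and mt-Atp6, which both have copies in the chromosome 1 block. Parts of that block without an annotated transcript were not searched, so a nuclear copy of mt-Atp8 was not tested. The nuclear copies were themselves counted at low levels: the mean of Gm28661, the copy of mt-Co2, was 16.6 CPM in brain and 15.3 in liver, and that of Gm10925, the copy of mt-Atp6, 17.1 and 20.5. How the counting treated reads that map to several places is not given in the sources used here, and its part in these levels was not tested. The values of mt-Co2, mt-Co3 and mt-Atp6 are therefore uncertain as levels of the mitochondrial transcripts, and those of mt-Nd4 and mt-Co1 are uncertain for the shared part of their genes. Divided by the windows that are not shared, mt-Nd4 would stand at 8403 per 1000 windows in brain and 11267 in liver, and mt-Co1 at 13667 and 15233.

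**Figure D1:**
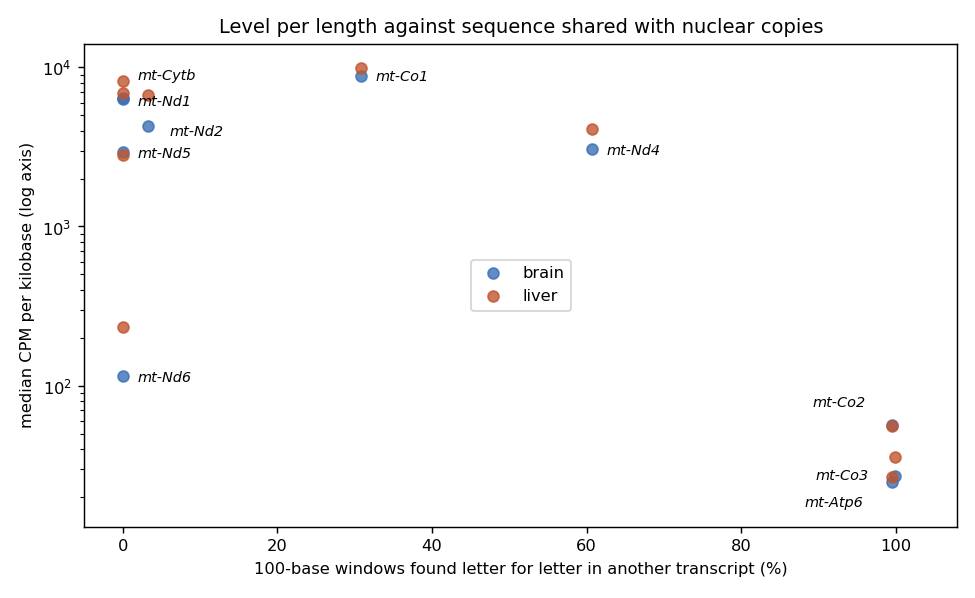
Median level of each of the 10 genes per kilobase (log axis, CPM per kilobase) against the percentage of its 100-base windows that stand letter for letter in another annotated transcript, in brain and liver. The 7 genes at 0 to 60.8% shared windows lie between 114 and 9860, and the 3 genes at 99.5% or more lie at 56.9 or lower.

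Brain was compared with liver in 1 model over both tissues (edgeR quasi-likelihood, 14035 genes kept in both, p-values adjusted by Benjamini-Hochberg over all of them), and 9 of the 10 members were called lower in brain at 3 months. In this comparison 90.1% of all genes were called in either direction and 43.2% were called lower in brain. mt-Nd6 differed most, being 4.07-fold lower in brain (log2 difference -2.03 ± 0.13 SE, adjusted p = 2.72e-33). The 6 abundant members were 1.75-fold (mt-Nd5) to 2.74-fold (mt-Nd2) lower. mt-Co3 and mt-Atp6 were 2.25-fold and 2.83-fold lower, while mt-Co2 had a difference of -0.42 ± 0.22 (adjusted p = 0.0592). With the mouse as a block this last value was -0.60 (adjusted p = 0.00265), which is past the threshold of 0.05.

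At 28 months the difference was smaller for most members, mt-Co2 being an exception. Again 9 of 10 members were called lower in brain, in a comparison that called 90.4% of all genes in either direction and 43.5% lower. mt-Nd6 was 2.41-fold lower in brain, mt-Nd2 2.23-fold, mt-Cytb 1.59-fold and mt-Co1 1.51-fold. mt-Atp6 differed by 0.04 ± 0.26 (adjusted p = 0.875), a value whose sign turned with other size factors (-0.04) and with the mouse as a block (-0.13). mt-Co2, which missed the threshold at 3 months, was 1.60-fold lower here (adjusted p = 0.00101).

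The size of the tissue difference depends on what the counts are divided by. Other size factors (DESeq2's) moved the median difference of all genes at 3 months from 0.08 to -0.03. As a plain percentage of the library's counts, mt-Co1 made up 1.24% ± 0.108 of brain and 1.55% ± 0.117 of liver counts at 3 months, a ratio of 0.801, where the model gave 1.97-fold. At 28 months mt-Co1 made up 1.37% ± 0.361 and 1.38% ± 0.151, and mt-Nd5 0.543% ± 0.140 and 0.486% ± 0.0745. By this measure 9 members had the lower mean in brain at 3 months and 8 at 28 months. The exceptions were mt-Co2 at 3 months and mt-Nd5 and mt-Atp6 at 28 months, for which brain had the higher mean. Without the brain library numbered 15 of 28 months 6 members had the lower mean in brain at 28 months, since mt-Co1 then stood at 1.45% ± 0.170 and mt-Nd1 at 0.625% ± 0.0822 in brain against 1.38% and 0.607% in liver. Without the brain library numbered 16 of 3 months all 10 had the lower mean in brain at 3 months, with mt-Co2 at 0.00428% against 0.00440%.

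In liver the members changed late. With the 3-month mice as reference, none of the 10 was called at 9 or at 15 months, where 4.69% and 7.32% of all 15579 genes tested were called in either direction (edgeR quasi-likelihood test, adjusted p under 0.05). At an unadjusted p under 0.05 there were 0 members at 9 months and 1 at 15 months, mt-Co3, and DESeq2 and limma-voom called 0 at both ages. At 24 months 6 members had fallen and at 28 months 8, and none had risen. DESeq2 called 6 and 8 at these ages and limma-voom 4 and 7, all lower, and at 24 months preps 1 and 2 alone called 0 each. The share of all genes called in either direction was 49.0% at 24 months and 61.9% at 28 months, and the share called lower was 24.0% and 30.0%. The median log2 change of the 10 members was 0.05, -0.00, -0.32 and -0.36 at 9, 15, 24 and 28 months, beside -0.01, -0.02, -0.01 and 0.01 over all genes. In bulk tissue, fewer cells of a type and less RNA per cell cannot be told apart.

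mt-Cytb, the cytochrome b of complex III, had the smallest adjusted p. Its level in liver was 8063, 10677 and 11295 CPM (lowest, median and highest of 16 mice) at 3 months and 3799, 7031 and 9090 (18 mice) at 28 months. The medians between were 10367 at 9 months, 10134 at 15 and 8230 at 24, so the level held until 15 months and was lower from 24. All 18 old mice lay below the median of the young and 14 lay below the lowest young mouse, while the highest old mice overlapped the young. The log2 change was -0.36 ± 0.09 (SE) at 24 months (adjusted p = 0.000268) and -0.51 ± 0.08 at 28 months (adjusted p = 2.81e-07).

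The complex I members all fell in the liver of 28-month mice, by unequal amounts. mt-Nd6 went from 94.2, 155 and 223 CPM to 27.9, 87.5 and 142, a log2 change of -0.69 ± 0.13 (adjusted p = 8.60e-06). All 18 old mice were below the young median and 11 below every young mouse. mt-Nd4 went from 4696, 6077 and 7135 CPM to 2508, 4444 and 5616 (-0.47 ± 0.08, adjusted p = 1.85e-06), with 12 of 18 old mice below every young mouse. mt-Nd2 went from 6216, 7499 and 9212 CPM to 3535, 5770 and 7517 (-0.44 ± 0.08, adjusted p = 1.53e-06), with 14 of 18 below every young mouse. mt-Nd5 and mt-Nd1 changed less and their groups overlapped more. mt-Nd5 had a median of 5558 CPM at 3 months and 4462 at 28 (-0.24 ± 0.08, adjusted p = 0.00769), and mt-Nd1 one of 6836 and 5911 (-0.22 ± 0.07, adjusted p = 0.00797). At 24 months mt-Nd2 (-0.32), mt-Nd4 (-0.32), mt-Nd5 (-0.20) and mt-Nd6 (-0.44) were already called lower, and mt-Nd1 had a change of -0.09 (adjusted p = 0.348).

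Of the complex IV members, mt-Co1 was called lower in old liver. It went from 12822, 16031 and 18263 CPM to 8558, 13620 and 15135, and all 18 old mice were below the young median, with 6 below every young mouse. Its log2 change was -0.13 ± 0.07 at 24 months (adjusted p = 0.140) and -0.27 ± 0.07 at 28 months (adjusted p = 0.000750). mt-Co2 and mt-Co3, whose sequences stand in the nuclear genome, had changes of 0.04 ± 0.22 and 0.33 ± 0.21 at 28 months (adjusted p = 0.895 and 0.170). Single mice weighed on mt-Co2: its highest old value was 239 CPM against a median of 31.3, and without that mouse, number 17, the change was -0.38.

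mt-Atp6, of the ATP synthase, was called lower in liver by a narrow margin, and few alternatives kept the call. Its 16 young livers were at 13.9, 18.5 and 142 CPM and its 18 old livers at 8.32, 13.7 and 91.4. The log2 change was -0.67 ± 0.29 at 24 months (adjusted p = 0.0477) and -0.63 ± 0.29 at 28 months (adjusted p = 0.0484). Without the 3-month mouse numbered 4 the 28-month change was -0.14 (adjusted p = 0.642), and leaving out single mice took the call away in 20 of 34 cases. Within preps 1, 2 and 3 the change was -1.75, -0.56 and 0.62. With the clock score as a term it was -0.67 (adjusted p = 0.113) and with limma-voom -0.38 (adjusted p = 0.215).

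The fall of the other 7 called members held its direction in each of the 3 preps. mt-Cytb changed by -0.43, -0.55 and -0.57 within preps 1, 2 and 3, and mt-Nd6 by -0.55, -0.51 and -1.04. With 1 prep alone fewer members passed the test: 5 lower in prep 1, 0 in prep 2, and 4 lower and 1 higher (mt-Co3, 1.07) in prep 3. Leaving out single livers kept 7 or 8 members called. As a share of the library's counts the 10 members together took 5.11% ± 0.345 at 3 months, 5.20% ± 0.430 at 9, 5.14% ± 0.423 at 15, 4.50% ± 0.819 at 24 and 4.27% ± 0.519 at 28. In brain that share was 3.80% ± 0.317, 4.26% ± 0.371, 4.19% ± 0.317, 4.16% ± 0.457 and 4.04% ± 0.946 at the same ages, and 4.23% ± 0.533 at 28 months without the library numbered 15. In liver it was 4.35% ± 0.430 at 28 months without the library numbered 14. The liver spread was widest at 24 months, when the lowest liver was at 2.51% and the highest at 5.70%.

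**Figure D2:**
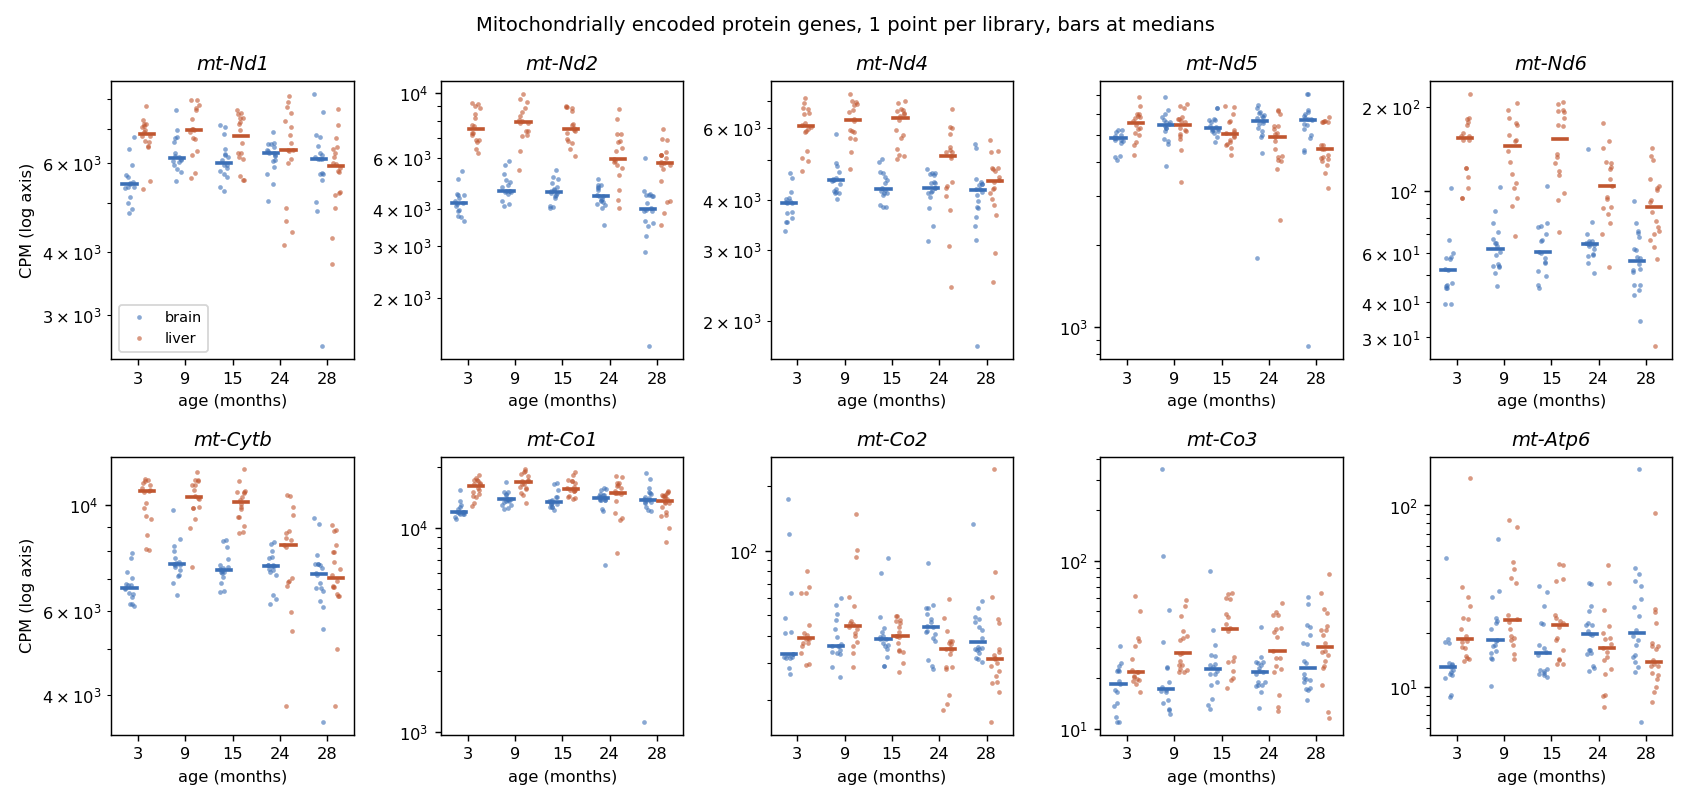
Level of each of the 10 genes (CPM, log axis) in every library by age in months, brain and liver in separate colours, with a bar at each median. In liver mt-Cytb, mt-Nd2, mt-Nd4 and mt-Nd6 step down between 15 and 24 months, while in brain the medians of mt-Co1, mt-Nd5 and mt-Atp6 at 28 months lie above those of 3 months, and the lowest points of mt-Co1 and mt-Nd5 (1117 and 852 CPM) are library 15 of 28 months.

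**Figure D3:**
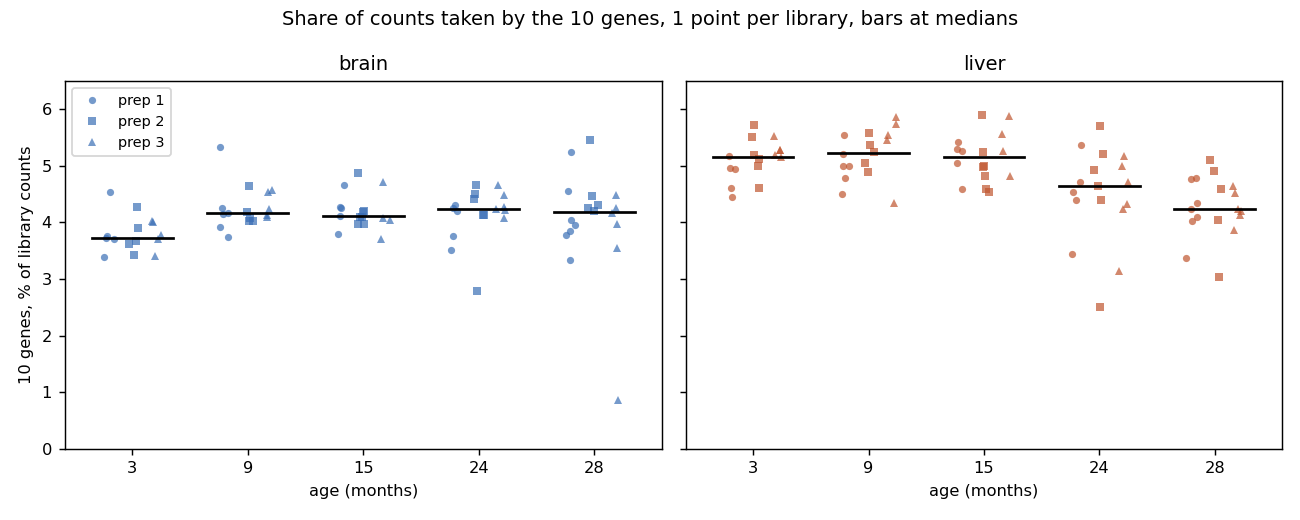
Percentage of each library's counts that fell on the 10 genes, by age in months, for brain and liver, 1 point a library with a symbol for its prep and a bar at the median of each age. Liver medians go from 5.17% at 3 months to 4.24% at 28, and the brain library at 0.868% is number 15 of 28 months.

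Leukocyte markers and clock genes moved with age in the same livers. The 5 leukocyte genes (Ptprc, Cd3e, Cd79a, Lyz2 and Jchain) summed to 110 ± 52.3 CPM at 3 months (78.9 to 293) and to 413 ± 244 at 28 months (140 to 1084), and the 5 hepatocyte genes to 86678 ± 13201 (64511 to 104276) and 96778 ± 19784 (28912 to 118744). Their part in the fall of the members was not tested. The 8 evening clock genes, among them Dbp and Per3, summed to 216 ± 134 CPM at 3 months (113 to 605), 203 ± 103 at 24 (61.4 to 417) and 477 ± 259 at 28 (131 to 846). With a clock score, evening genes minus morning genes, as a term in the model, 7 members were called lower at 28 months. The median change of all members, called or not, was then -0.45. In the model without the clock score, and without the liver library numbered 14 of 28 months, 7 members were called lower, with mt-Cytb at -0.46 and mt-Nd6 at -0.64, and mt-Atp6 had -0.58 (adjusted p = 0.0798). Without the liver library numbered 9 of 28 months 7 were again called, and mt-Atp6 had -0.59 (adjusted p = 0.0767). At 24 months 5 members were called without the liver library numbered 13, when mt-Atp6 had -0.64 (adjusted p = 0.0688).

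In brain the same genes did not follow the liver. None of the 10 was called at 9 or 15 months, where 0.315% and 0.871% of all 18711 genes tested were called in either direction (edgeR quasi-likelihood test, adjusted p under 0.05). At an unadjusted p under 0.05, 6 members at 9 months and 2 at 15 months were higher and none lower. DESeq2 called 1 member at 9 months and 0 at 15, and limma-voom with sample weights called 5 and 4, all higher. At 24 months 1 member rose, mt-Nd6 (0.30 ± 0.10, adjusted p = 0.0420), and at 28 months 1 rose, mt-Atp6 (0.95 ± 0.26, adjusted p = 0.00429). The call of mt-Nd6 rested on the library numbered 13 of 24 months, which held the highest value of that age (142 CPM), and without it the change was 0.23 (adjusted p = 0.126). The share of all genes called was 10.1% in either direction and 6.19% higher at 24 months, and 28.3% and 16.3% at 28 months. At 24 months no member was called without a filter on low counts or within any prep alone, and 5 were called once the 2 most divergent brain libraries had been left out. limma-voom called 7 members at 24 months and 5 at 28, all higher. The shares of all genes given here are those of the main edgeR fit. Counts of members from other fits or fewer libraries have no such share beside them. The median change of the members was 0.18, 0.16, 0.16 and 0.11 at 9, 15, 24 and 28 months, beside -0.00, -0.00, 0.01 and 0.01 over all genes.

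Of the 6 abundant brain members 5 had higher medians at every age from 9 months on than at 3 months, and mt-Nd2 had them until 24 months. mt-Co1 had medians of 11970, 13829, 13428, 14069 and 13810 CPM at 3, 9, 15, 24 and 28 months, and 17 of 18 old mice lay above the young median. mt-Nd5 had medians of 4881, 5462, 5328, 5658 and 5701 CPM, and 13 of 18 old mice lay above the highest young mouse. At 28 months the changes were 0.14 ± 0.12 for mt-Co1 and 0.17 ± 0.11 for mt-Nd5 (adjusted p = 0.371 and 0.246). The spread behind these errors came in part from 1 library: number 15 of 28 months held mt-Co1 at 1117 CPM and mt-Nd5 at 852. Without it 4 members were called, all higher: mt-Nd1 (0.17), mt-Nd5 (0.25), mt-Co1 (0.22) and mt-Atp6 (1.01). The share of all genes called in that fit is not given here, so this count has no background beside it.

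mt-Nd2 of complex I was the abundant member with a negative change in old brain. It stood at 3660, 4193 and 5397 CPM in young mice and at 1363, 4015 and 5964 in old ones, and 6 of 18 old mice were below every young mouse. The log2 change was -0.11 ± 0.08 (adjusted p = 0.273), and it was -0.17, 0.14 and -0.29 within preps 1, 2 and 3. The lowest value, 1363 CPM, is that of library 15 (prep 3), without which the change was -0.05 (adjusted p = 0.514). mt-Cytb and mt-Nd4 changed by 0.05 ± 0.06 and 0.06 ± 0.07 (adjusted p = 0.540 and 0.550), and without that library by 0.10 and 0.11 (adjusted p = 0.130 and 0.125).

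The rise of mt-Atp6 in old brain rested on some mice more than others. It was at 8.86, 13.0 and 51.3 CPM in 15 young brains and at 6.43, 19.8 and 158 in 18 old ones, and 15 of 18 old mice were above the young median with 1 above every young mouse. Without that mouse, number 14, the change was 0.58 (adjusted p = 0.0395), and it was called in all 33 cases with 1 mouse left out. Within preps 1, 2 and 3 it was 0.05, 2.05 and 0.61, and with libraries of both ages alone it was 0.83 (adjusted p = 0.0640). mt-Co3 changed by 0.59 ± 0.30 (adjusted p = 0.131) and mt-Co2 by -0.18 ± 0.19 (adjusted p = 0.499). The value of mt-Co2 was 0.086 without the 3-month mouse numbered 16 and -0.34 without the 28-month library numbered 15. Of 9 nuclear copies of mitochondrial sequence tested in brain 1 rose, Gm28438 (0.33 ± 0.10), which copies mt-Nd3 and not a member. Of all brain genes 16.3% were called higher. In liver without the library numbered 14 of 28 months, 3 of 9 copies were called lower and 0 higher (median -0.30). With all libraries 30.0% of liver genes were called lower. Gm28439, the copy of mt-Nd4, had -0.37 (edgeR adjusted p = 0.0105). Gm10925, the copy of mt-Atp6, had -0.54 (adjusted p = 0.00682), and Gm13341 -0.32 (adjusted p = 0.0528).

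The change from 3 to 28 months was higher in brain than in liver for 8 of 10 members by the test of the difference itself, the tissue by age term of the model over both tissues. That test called 49.2% of all genes in either direction and 21.9% as higher in brain. The difference was largest for mt-Atp6 (1.54 ± 0.39, adjusted p = 0.000561) and mt-Nd6 (0.76 ± 0.17, adjusted p = 9.10e-05). It was 0.53 ± 0.11 for mt-Cytb (adjusted p = 1.67e-05) and 0.49 ± 0.11 for mt-Nd4 (adjusted p = 0.000128). mt-Co2 and mt-Co3 had -0.26 ± 0.29 and 0.23 ± 0.37 (adjusted p = 0.470 and 0.625). With the mouse as a block 5 members were called, and mt-Nd2, mt-Nd5 and mt-Co1 were not. Without the brain library numbered 15 of 28 months 8 members were called, with differences from 0.35 for mt-Nd1 to 1.61 for mt-Atp6.

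**Figure D4:**
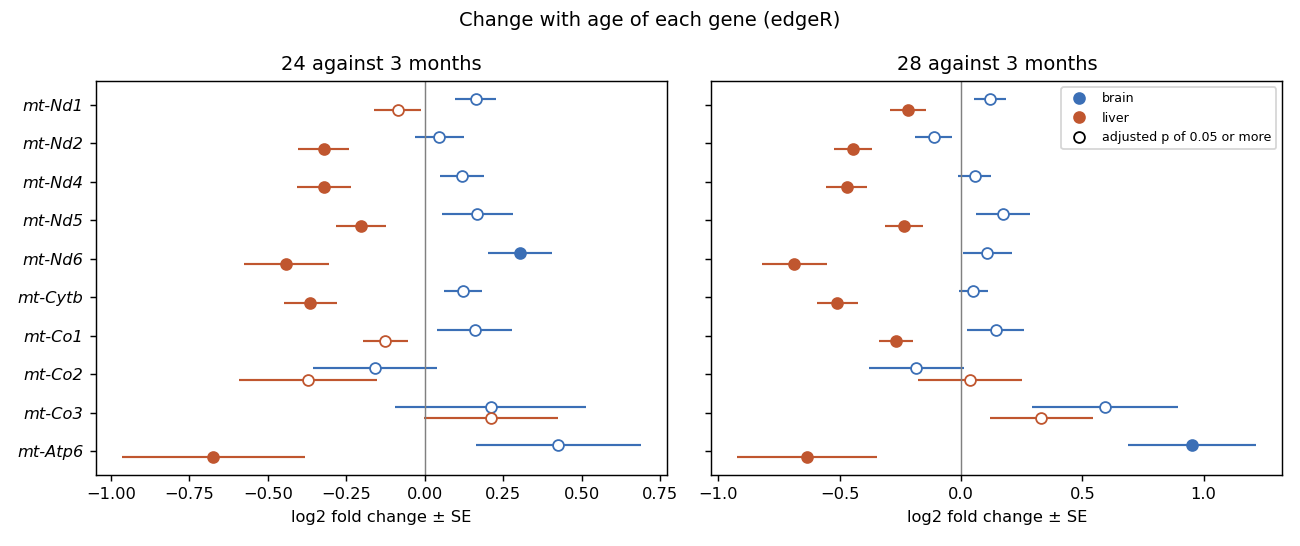
Log2 change of each of the 10 genes from 3 to 24 months (left) and from 3 to 28 months (right) in brain and liver, with bars of 1 SE and open points where the adjusted p was 0.05 or more. At 28 months 8 liver points are filled and lie below 0, with mt-Co2 and mt-Co3 open at 0.04 and 0.33, and in brain mt-Atp6 at 0.95 is the filled point.

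The members did not change in one proportion. A ratio of 1 member to the geometric mean of the other 9 in the same library does not depend on how libraries are scaled. Its difference between 3 and 28 months was tested by permuting ages within preps (100000 resamples, two-sided, unadjusted, 20 tests of this ratio). Tests against other sets of genes, or without the brain library numbered 15, come on top of these 20. In brain mt-Nd2 had a log2 ratio lower by 0.33 at 28 months, a difference of -0.33 with p = 1e-05, the smallest this permutation test can give. It made up 11.3% ± 0.451 of the members' counts in young brain and 9.90% ± 0.818 in old, and the difference was negative in all 3 preps. Without the brain library numbered 15 it was -0.31 (permutation p = 1e-05). Against the 6 others of the 7 members with under 90% of their windows shared, which still include mt-Nd4 and mt-Co1, mt-Nd2 again differed, by -0.21 (permutation p = 1e-05), whereas mt-Cytb and mt-Nd4, at -0.13 each against the other 9 (permutation p = 0.0136 and 0.0119), were both at 0.00. mt-Nd1 turned from -0.05 against the other 9 (permutation p = 0.227) to 0.08 among these 7 (permutation p = 0.00222). The ratios of mt-Atp6 and mt-Co3 were higher in old brain, by 0.63 and 0.46 (permutation p = 0.0158 and 0.0139), with the same sign in all 3 preps, and both genes are among the 9 that mt-Nd2 is set against.

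In liver the minus-strand member mt-Nd6 had a difference of -0.48 within the set (permutation p = 0.00051), which was -0.18, -0.15 and -1.01 within preps 1, 2 and 3. It made up 0.281% ± 0.0586 of the members' counts in young liver and 0.218% ± 0.0598 in old. mt-Cytb went from 19.4% ± 1.02 to 17.4% ± 1.25 of those counts (difference -0.20, permutation p = 0.00434), and mt-Nd1 from 12.9% ± 0.773 to 14.2% ± 0.857 (0.13, permutation p = 0.0174). mt-Cytb and mt-Nd1 kept their sign in all 3 preps. mt-Co3, which is among the 9 that each of these is set against, had 0.72 (permutation p = 0.00153), with the same sign in all 3 preps. mt-Nd4 and mt-Nd2 had differences of -0.16 and -0.14 (permutation p = 0.0140 and 0.0366), which were -0.07 and -0.05 among those 7 members (permutation p = 0.0951 and 0.297). mt-Nd1, mt-Nd5 and mt-Co1 were higher among them, by 0.24, 0.20 and 0.19 (permutation p = 1e-05, 0.00019 and 8.00e-05). mt-Cytb and mt-Nd6 had -0.11 and -0.40 among them (permutation p = 0.0246 and 0.00067).

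**Figure D5:**
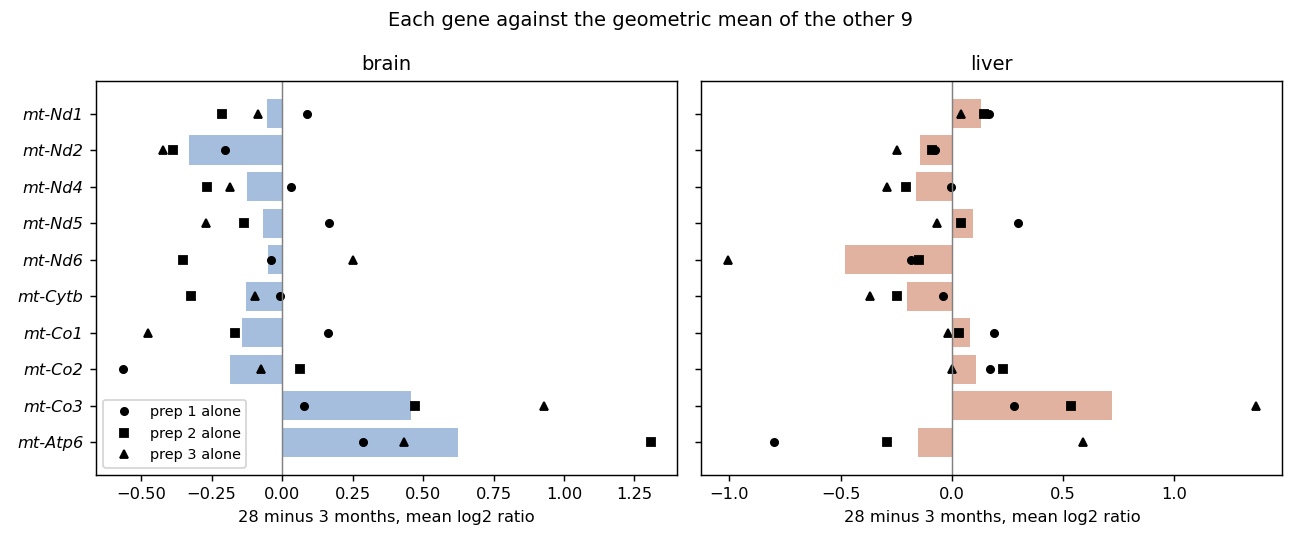
Bars show the difference between 28 and 3 months in the mean log2 ratio of each gene to the geometric mean of the other 9, in brain and liver, and symbols the same difference within each prep alone. In brain mt-Nd2 stands at -0.33 with all 3 preps below 0, and in liver mt-Nd6 stands at -0.48 and mt-Co3 at 0.72.

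Across libraries of a tissue, once the means of age and prep were removed, the 6 abundant members went together. Their 15 pairwise correlations of log2 CPM had a median of 0.866 in 82 brain libraries (0.769 to 0.957) and of 0.805 in 83 liver libraries (0.755 to 0.959). Without the brain library numbered 15 the brain median was 0.815 (0.496 to 0.926). Without the liver library numbered 14 the liver median was 0.782 (0.733 to 0.953). The points share library, depth and scaling, and the values are a description. mt-Nd6 had a median correlation with these 6 of 0.147 in brain and 0.527 in liver, mt-Co2 one of -0.173 and 0.505, mt-Co3 one of 0.130 and 0.268, and mt-Atp6 one of 0.389 and 0.348. The mitochondrial rRNAs mt-Rnr1 and mt-Rnr2 had -0.011 and -0.061 with the mean of the members in brain, and 0.393 and 0.408 in liver. These brain values rested on the library numbered 15: without it mt-Nd6 had 0.321, mt-Co2 0.129, mt-Co3 0.084, mt-Atp6 0.264, mt-Rnr1 0.477 and mt-Rnr2 0.497. Within the 82 mice with both tissues, the median correlation of a member between brain and liver was 0.0045, and the median over all 14035 genes was -0.0051.

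The genes most like the mean of the members, by the same correlation and among genes of at least 10 CPM, differed between the tissues. In brain they were P2ry12 (0.749) and Gpr34 (0.739), both receptors known as microglial, S1pr1 (0.729), Emx2 (0.723) and Nadk2 (0.715), with a median of 0.095 over 10307 genes. Without the brain library numbered 15 these 5 had correlations of 0.515 to 0.573. The ranking over all genes was not repeated without it, so the brain ranking is one with that library included. In liver they were Cfl2 (0.782), Uqcrc2 (0.762), Etfa (0.746), Dld (0.734) and Atp5c1 (0.729), with a median of 0.034 over 8185 genes. Uqcrc2 is a nuclear subunit of complex III, Atp5c1 one of the ATP synthase, and Etfa and Dld code for mitochondrial enzymes that feed electrons to the chain or make its substrates.

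The nuclear genes that share complexes with the members also fell in old liver. Of 38 nuclear subunits of complexes I, III, IV and the ATP synthase that were tested, 37 were called lower at 28 months and 0 higher, with a median change of -0.34 beside 0.01 over all genes, of which 30.0% were called lower. Cox7a2 of complex IV changed by -0.57 ± 0.07, and Ndufs1 and Ndufa10 of complex I by -0.45 ± 0.06 and -0.41 ± 0.06. At 24 months 30 of 38 were lower (24.0% of all genes), and at 9 and 15 months 0 were called by the same edgeR test. Without the liver library numbered 14 of 28 months, 36 of the 38 were called lower (median -0.30).

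Genes that make, mature and translate the members' transcripts went the same way in liver, with less uniform results for transcription. Against the same 30.0% of all genes called lower, 27 of 32 genes for mitochondrial RNA processing, modification, polyadenylation and decay were lower and 1 higher at 28 months (median -0.35). Lrpprc and Slirp, which together bind and stabilise mitochondrial messengers, changed by -0.41 ± 0.06 and -0.32 ± 0.06, and Mtpap, the mitochondrial poly(A) polymerase, by -0.14 ± 0.04. The exonuclease Rexo2, the ribosome protein Ptcd3 and the methyltransferase Mrm2 changed by -0.53, -0.45 and -0.62. Of 38 genes for translation and insertion, 34 were lower and 0 higher (median -0.39), with the elongation factors Gfm2 and Tufm at -0.58 and -0.52 and Letm1 at -0.68. Of 20 genes for transcription and replication of the mitochondrial genome, 12 were lower and 1 higher (median -0.20). Mterf4, Mgme1 and the elongation factor Tefm changed by -0.55, -0.44 and -0.52, the RNA polymerase Polrmt by -0.28 ± 0.05 and Tfb2m by -0.22 ± 0.07. Tfam, which packages the genome and starts its transcription, had -0.09 ± 0.05 (adjusted p = 0.0932).

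Regulators of mitochondrial biogenesis did not share one direction in old liver. Of 15, 1 was higher and 1 lower (2 and 1 without the liver library numbered 14): Ppargc1a, a coactivator known to drive mitochondrial gene programmes, rose from 7.98 ± 1.44 to 16.7 ± 9.25 CPM (log2 change 1.07 ± 0.18, adjusted p = 6.12e-07), and Ppard fell (-1.09 ± 0.26, adjusted p = 0.000266). Among the 27 mitochondrial genes outside the 10 members, 14 were tested, of which 5 fell and 2 rose (3 and 2 without that library), a share of falls near the 30.0% of all liver genes. mt-Rnr1 of the small ribosomal subunit changed by -0.58 ± 0.12 and mt-Rnr2 of the large one by -0.32 ± 0.13. The tRNA genes mt-Tq and mt-Ti fell by 1.13 and 0.53 on the log2 scale, while mt-Tw and mt-Atp8 were the 2 that rose.

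In old brain these lists showed few changes with all libraries, and 1 library decided several of them. Of 38 nuclear subunits 7 were called higher at 28 months and 0 lower (median 0.23), and without the library numbered 15 none was called in either direction by the same edgeR test (median 0.02). With all libraries 16.3% of all brain genes were called higher at 28 months and 28.3% in either direction, and the shares called in the 5 lists of this paragraph lie near or below these. Cox4i1 of complex IV had a change of 0.51 ± 0.15 with that library and of 0.19 ± 0.08 without it (adjusted p = 0.0853). Cox6a1, also of complex IV, had 0.57 and 0.15, and Atp5e of the ATP synthase 0.95 and -0.07. Of 38 translation and insertion genes 6 were higher and 2 lower with it, and 3 and 8 without it. Of 32 RNA processing genes 3 were higher and 3 lower (4 and 3 without the library), of 20 transcription and replication genes 2 and 3 (3 and 6 without), and of 15 regulators 0 and 3 (1 and 2 without). The share of all genes called without that library is not given here. The counts without it therefore have no share to be set beside.

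Of the genes with the smallest adjusted p in the other lists, all that follow but Yy1 kept their call without that library. Surf1, an assembly factor of complex IV, changed by 0.36 ± 0.08 with it and by 0.25 ± 0.06 without it, and Taco1, which helps to translate mt-Co1, by -0.32 ± 0.06 and -0.28 ± 0.06. Atpaf1, an assembly factor of the ATP synthase, had 0.13 ± 0.03 with it. Fastkd2, Fastkd5 and Rexo2, which act on mitochondrial RNA, had -0.20 ± 0.04, -0.29 ± 0.08 and -0.12 ± 0.03. The regulators Pprc1, Gabpa and Yy1 had -0.16 ± 0.05, -0.29 ± 0.10 and -0.10 ± 0.04, and Yy1 had -0.06 without the library (adjusted p = 0.0600). The nuclease Mgme1 had -0.28 ± 0.06, the topoisomerase Top3a 0.24 ± 0.06 and the single-strand binding protein Ssbp1 0.15 ± 0.04. Of the other mitochondrial genes 5 of 14 rose and 1 fell (4 and 2 without it): the tRNA genes mt-Tt and mt-Tw had 0.83 ± 0.14 and 0.41 ± 0.09, and mt-Tm -0.56 ± 0.12. With all libraries mt-Rnr2 had 0.28 ± 0.11 (adjusted p = 0.0381) and mt-Rnr1 0.18 ± 0.09 (adjusted p = 0.140). The 5 leukocyte genes summed to 13.4 ± 2.94 CPM in young brain (8.62 to 20.2) and 27.7 ± 6.46 in old (19.6 to 49.5), and the 5 blood genes to 84.5 ± 50.0 (29.9 to 234) and 176 ± 160 (34.3 to 725), and their part in the brain values was not tested.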

How the data were processed

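The deposited files are tables of read counts per gene, one for brain and one for liver, made by the authors with cutadapt 2.8, HISAT2 2.1.0, SAMtools 1.9 and featureCounts of Subread 2.0.1 on GRCm38.p6 (mm10), per the submitters' processing notes. The annotation release, the strand setting and the treatment of reads with several places are not given in the sources used here. Symbols and positions came from GENCODE M21, which named 55144 of 55471 identifiers.

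Counts were tested with edgeR 4.0.16 (R 4.3.3): filterByExpr by age, TMM scaling, a quasi-likelihood fit with age and prep over all libraries of a tissue, and Benjamini-Hochberg adjustment over all genes, with calls at an adjusted p under 0.05. The tissues were compared in one fit with prep within tissue. Brain and liver of a mouse are paired by their shared number, and the fit with the mouse as a block is the alternative. Over 82 mice the correlation of the deviations of both tissues had a median of 0.0497 (-0.156 to 0.254), with 19 mice above 0.1. Standard errors were derived from the quasi-likelihood F. CPM came from edgeR on TMM-scaled totals, and percentages use plain totals. Ratios within the members used a pseudocount of 0.5 counts. DESeq2 1.42.0 and limma 3.58.1 (voom) were alternatives, and the code was tested on simulated data.

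The replicates are separate mice. The members, the gene lists and the tests were chosen with earlier results of these data known. Besides all members, the text names up to 3 genes of each list, those with the smallest adjusted p in a tissue. It also names key genes of the lists chosen after their values were seen (Lrpprc, Slirp, Mtpap, Polrmt, Tfb2m, Tfam and the rRNAs), and the 5 genes most like the members' mean. Coordinates are 1-based.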

Additional observations from a re-analysis of the deposited data

Results flagged for a closer look

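The change from 3 to 28 months differed between brain and liver for 8 members, by the test of the tissue by age term (edgeR, adjusted over 14035 genes). The log2 change in brain minus that in liver was 0.30 for mt-Nd1 (adjusted p = 0.00949), 0.30 for mt-Nd2 (adjusted p = 0.0237), 0.49 for mt-Nd4 (adjusted p = 0.000128), 0.37 for mt-Nd5 (adjusted p = 0.0209) and 0.76 for mt-Nd6 (adjusted p = 9.10e-05). It was 0.53 for mt-Cytb (adjusted p = 1.67e-05), 0.38 for mt-Co1 (adjusted p = 0.0198) and 1.54 for mt-Atp6 (adjusted p = 0.000561). With the mouse as a block the value was 0.26 for mt-Nd2 (adjusted p = 0.0819), 0.30 for mt-Nd5 (adjusted p = 0.101) and 0.30 for mt-Co1 (adjusted p = 0.133). The liver part of the mt-Atp6 value was -0.63, and -0.14 without the 3-month mouse numbered 4.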

How the results depend on the processing

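Over all alternatives 1173 values stayed the same (direction and side of the threshold for a test, within 1.5 times for a count, within the spread for a level), 52 lost the threshold, 19 passed it, 36 moved and 28 turned sign; the cause was not tested. In brain, the members called at 9 months were 1 with DESeq2, 5 with limma-voom, 2 with both ages alone and 4 without the 2 least alike libraries. At 15 months they were 4 with limma-voom, 2 with both ages alone and 1 without those libraries. At 24 months they were 7, 2 and 5 in that order, 0 without a filter, 0 without number 13 of 24 months and 0 in each prep alone. At 28 months they were 5 with limma-voom, 4 without the 2 least alike libraries, 4 without number 15, 0 in prep 1 and 0 in prep 3, and 1 to 4 with 1 library left out. In liver prep 1 and prep 2 called 0 at 24 months, and preps 1, 2 and 3 called 5, 0 and 5 at 28, while 7 to 8 were called with 1 library left out and limma-voom called 4 at 24 and 7 at 28. The shares of all genes that these alternatives called are not given here.

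Signs turned in brain for mt-Nd6 in prep 1 (-0.032), for mt-Nd2 (0.14) and mt-Co2 (0.58) in prep 2, and in prep 3 for mt-Nd1 (-0.020), mt-Nd4 (-0.11), mt-Nd5 (-0.016), mt-Cytb (-0.044) and mt-Co1 (-0.062). In liver mt-Co2 was -0.25 with limma-voom, -0.22 in prep 1, -0.22 in prep 3 and -0.19 with the clock score, mt-Co3 was -0.18 in prep 1 and mt-Atp6 was 0.62 in prep 3. With 1 library left out, mt-Co2 ranged from -0.34 to 0.086 in brain (without the 3-month mouse numbered 16) and from -0.38 to 0.12 in liver. Between the tissues at 28 months mt-Atp6 was -0.039 with other size factors.

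With the mouse as a block the tissue by age term called 5 members, mt-Co2 was 0.17 there, and mt-Atp6 was -0.13 between the tissues at 28 months. Numbers shared across ages do not mark the same mouse (median correlation 0.0096 in brain and 0.0091 in liver). As a replicate block they gave -0.29 for mt-Co2 in liver and called 5 members at 24 and 7 at 28 months there.

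For the ratios within the set, the 7 members with under 90% of their windows shared gave 0.078 (mt-Nd1), 0.0030 (mt-Nd4), 0.063 (mt-Nd5), 0.083 (mt-Nd6) and 0.00080 (mt-Cytb) in brain and -0.049 (mt-Nd2), -0.066 (mt-Nd4), 0.20 (mt-Nd5) and 0.19 (mt-Co1) in liver. The brain value of mt-Nd1 also passed 0.05 (permutation p = 0.00222). Against all 13 protein genes brain mt-Nd4 and mt-Cytb had -0.14 and -0.14 (permutation p = 0.0560 and 0.0881) and liver mt-Nd1 0.11 (permutation p = 0.0768), each above 0.05. Without brain number 15, mt-Nd5 and mt-Co1 had 0.027 and 0.011. All mitochondrial genes took 4.83%, 5.41%, 5.40%, 5.43% and 5.22% of brain counts at the 5 ages. The ratio to 7 members and the values without brain numbers 13, 15 or 16 or liver numbers 9, 13 or 14 were chosen after seeing the data.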
